A study of Gallus gallus with 8 samples.

Results

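miRNAs known from cartilage, connective tissue and smooth muscle were followed in the ectoderm of the chick face. Rows were taken by miRNA number, as every row of the deposited table that is numbered miR-140, miR-21 or miR-22. The members were chosen with earlier results of these data known. The choice also covered miR-143 and miR-145, for which the table analysed here holds 0 rows, so this smooth muscle pair was not analysed here. The rule found 6 of the 994 features, namely the 5p and the 3p arm of each of miR-140, miR-21 and miR-22. The tissue was the ectoderm of the frontonasal ectodermal zone, from which growth of the upper jaw is directed. It came from untreated Rhode Island Red chicken embryos at Hamburger-Hamilton stage 18 (HH18, 48 h) or stage 22 (HH22, 72 h), before and after the onset of Sonic hedgehog expression. Each stage had 4 libraries, each made from a pool of 2 chicks.

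A miRNA is cut from a hairpin precursor that gives a 5p and a 3p strand, of which usually one, the major arm, is loaded into Argonaute and kept. miR-140 is the classical cartilage miRNA: in mouse its gene lies in an intron of Wwp2 and is activated by the chondrocyte factor Sox9, and in zebrafish it acts on palate formation through a PDGF receptor. miR-21 is a widely expressed miRNA that is raised in fibrosis, wound repair and many tumours, and miR-22 is known from heart muscle and from blood cells in mouse and human. By RefSeq's gene table for GRCg7b (names and neighbours only), MIR140 lay within WWP2, MIR21 lay within RPS6KB1 next to VMP1, and MIR143 and MIR145 were neighbours within 1 lncRNA.

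The libraries held 6276121 to 31318393 reads at HH18 and 46912793 to 88471588 at HH22, so depth and stage cannot be told apart. Values are normalized counts, that is, reads divided by a size factor of the library, and 1 read was worth 0.336 to 4.18 of them. HH18 replicates 5 and 6 were the shallowest libraries. As a check of the labelled tissue, epithelial miRNAs (miR-200a, miR-200b, miR-429, miR-203 and miR-205) were summed. They came to 264084 to 375690 normalized counts at HH18 and 454127 to 612969 at HH22, with reads in all 9 of their rows. By the limma test 2 of the 9 were higher at HH22, miR-203a (48955 to 157387) and miR-205a (73107 to 158680). In the other direction, 1 was lower, miR-200b-5p (11428 to 5051). Over all tested features 9.83% were higher and 4.78% lower. Neural miRNAs (miR-9, miR-124, miR-128, miR-137 and miR-219) were also present, at 46117 to 67378 and 49241 to 58630, with 0 of 14 rows at 0 in all libraries. Most of this sum was miR-128-3p (stage means of 34897 and 35739) and miR-9-5p, while miR-124a-3p (130 and 89.3) and miR-137-3p (117 and 120) were scarce. Of the 11 neural rows tested, 1 was higher (miR-219a, 2777 to 6092) and 1 lower (miR-9-5p, 20034 to 8660). Striated muscle miRNAs summed to 0 to 38.2 and 12.6 to 92.0, with 9 of 14 rows at 0 in all libraries. Blood and endothelial miRNAs summed to 14371 in HH18 replicate 5, to 233 to 2041 in HH18 replicates 6 to 8, and to 306 to 2089 at HH22. In such bulk samples, fewer cells of a type and less RNA per cell cannot be told apart.

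The 3 major arms were present in every library, and within each stage their levels did not overlap one another. miR-21-5p was the most abundant member, ranking between 15 and 20 among all features by reads. miR-140-3p followed with ranks between 21 and 25, and miR-22-3p with ranks between 54 and 66. In reads per M (mega) reads of a library, this came to 1545 ± 379 and 1699 ± 296 for miR-21-5p, 866 ± 143.9 and 1150 ± 108 for miR-140-3p, and 82.0 ± 24.6 and 70.6 ± 9.70 for miR-22-3p, at HH18 and HH22 respectively (SD, n = 4). A read stands for a whole mature miRNA of nearly the same length, so no length correction was made, but adapter ligation can favour one miRNA over another. The minor arms were at 0 to 140.8 normalized counts. Among them miR-140-5p was above miR-22-5p and miR-21-3p at HH22, though barely so for miR-22-5p (the lowest miR-140-5p library was at 43.9 and the highest miR-22-5p library at 43.8), while miR-22-5p and miR-21-3p overlapped at HH22 and all 3 overlapped at HH18.

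miR-140-3p, the major arm of the cartilage miRNA, was the member that rose between the stages. Its normalized counts were 23500, 26284, 24240 and 23081 in HH18 replicates 5 to 8, and 35761, 31952, 35213 and 33899 in HH22 replicates 1 to 4. Every HH22 library was above every HH18 library, and the replicates of a stage lay close together. The ratio of the stage means was 1.41, from 24276 ± 1422 to 34206 ± 1694 (SD, n = 4), with a log2 fold change of 0.50 (SE 0.10, 95% interval 0.28 to 0.71, limma adjusted p = 0.00796). Of the 6 members, all of which were tested, 1 was higher and 0 were lower, where 9.83% of all 356 tested features were higher and 4.78% lower. Of the 33 features whose mean reached 10000, the class to which miR-140-3p belongs, 39.4% were higher. In 1 member all HH22 libraries lay above all HH18 libraries, and in 0 all lay below, against 11.5% and 8.71% of all tested features (20.2% together). The median log2 fold change of the members was 0.36, beside 0.38 over all tested features and 0.13 over the 79 features with a mean of at least 1000. The member median includes the scarce arms miR-21-3p (2.47) and miR-22-5p (3.10), which entered the test mainly through HH22. Their values depend on the pseudocount, being 1.05 and 1.56 with 5 in place of 1, so the member median is no result about the members.

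The rise of miR-140-3p depended on how the libraries were put on one scale. With upper-quartile scaling the log2 fold change was 0.63 (SE 0.12, limma adjusted p = 0.00653). With the authors' kind of scaling computed without the 5 most abundant features it was 0.48 (SE 0.096, limma adjusted p = 0.0091). With scaling by library size the log2 fold change was 0.42 and did not pass (SE 0.14, limma adjusted p = 0.0926). With library size counted without the 5 most abundant features, an alternative chosen after seeing the data, it was 0.029 (SE 0.11, limma adjusted p = 0.878), and the median over all tested features moved by -0.42 with it. Relative to that median, miR-140-3p stood at 0.08, compared with 0.12 under the authors' scaling. Across all alternatives this distance ran from 0.014 (without HH18 replicate 8) to 0.43 (deposited log2 values). The median also depends on level: under the authors' scaling it was 0.38 over all tested features. It was 0.13 over those with a mean of at least 1000 and 0.23 over those with a mean of at least 10000. In reads per M reads, which is scaling by library size, miR-140-3p was at 696 to 1002 at HH18 and 1037 to 1272 at HH22. The stages were thus narrowly apart on a scale where the test did not pass. The share of all features that lie apart on this scale was not counted.

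**Figure D1:**
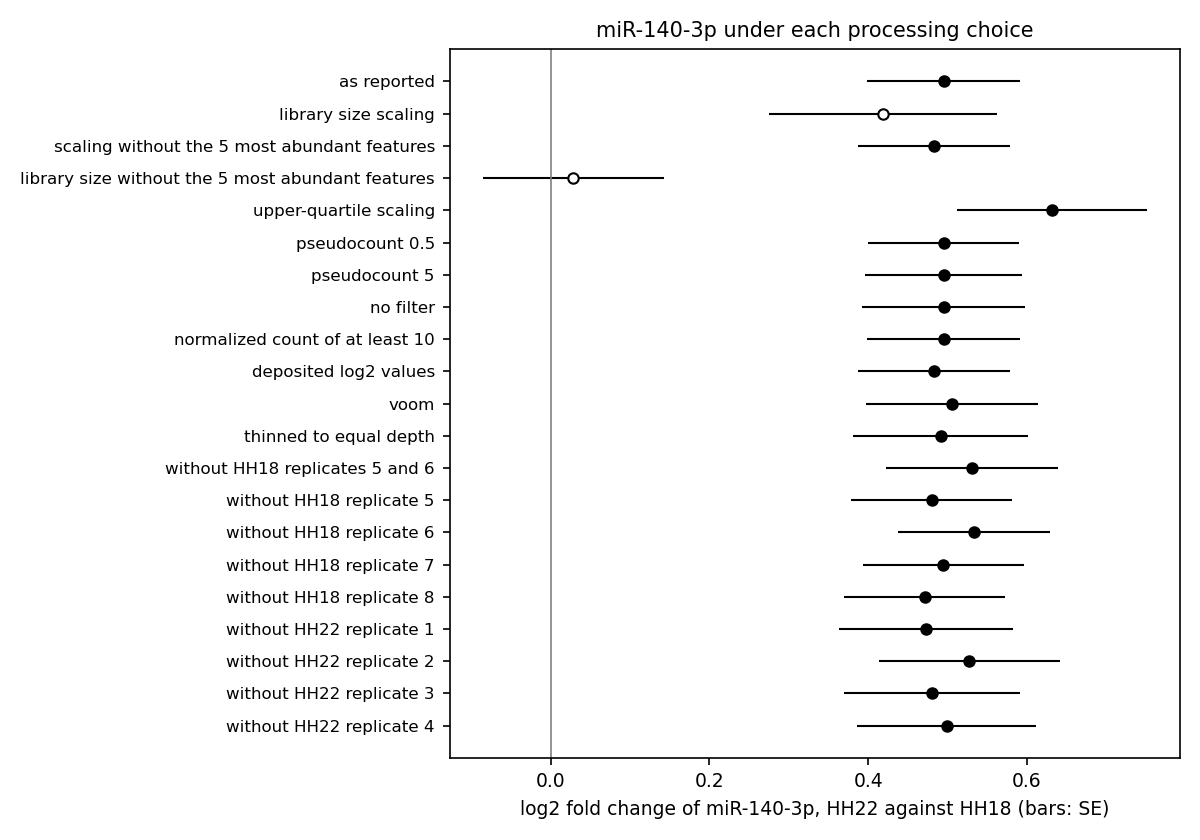
Log2 fold change of miR-140-3p, HH22 against HH18 (horizontal axis; bars are the SE), under the reported settings and each alternative (rows). Filled points passed the threshold and open points did not; the open points are library size scaling (0.42) and library size without the 5 most abundant features (0.029).

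Ratios to other miRNAs within a library do not depend on any scaling. Against miR-455-5p, another miRNA known from chondrocytes in mouse and human, reads of miR-140-3p stood at 3.97, 3.78, 5.62 and 4.40 to 1 in HH18 replicates 5 to 8 and at 6.83, 6.32, 7.40 and 9.04 to 1 in HH22 replicates 1 to 4. The stages did not overlap in this ratio, which was 4.44 ± 0.83 at HH18 and 7.40 ± 1.18 at HH22 (SD, n = 4). Against miR-22-3p the ratio was 11.1 ± 2.77 and 16.4 ± 2.03 (SD, n = 4), with the highest HH18 library at 14.16 and the lowest HH22 library at 14.23. Against miR-21-5p the ratio overlapped between stages, at 0.43 to 0.74 and 0.60 to 0.81. These ratios were picked with their values in view, and no test was made of them. Set against each of the other 78 features whose mean reached 1000, miR-140-3p had a higher ratio at HH22 with no overlap for 28, a lower one with no overlap for 8, and overlapping stages for 42. Among those 79 features, 20.3% had at least as many higher ratios.

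The replicates of miR-140-3p were closer together than those of any other feature as scaled by the authors. Its SD within a stage on the log2 scale was 0.08, the lowest of 356 tested features, where the median was 0.20 over the 33 features with a mean of at least 10000. Its coefficient of variation was 5.86% at HH18 and 4.95% at HH22, against 23.1% and 11.9% for miR-21-5p. The position of miR-140-3p in this order depended on the scale, being 16 with library size scaling, 12 with library size counted without the 5 most abundant features, and 13 for the deposited log2 values. Of the HH18 libraries the shallowest, replicate 6, had the highest value and the deepest, replicate 7, was at 24240. No HH18 library was as deep as any HH22 library, so these values do not separate depth from stage. Thinned to the depth of the shallowest library, the data gave a rise of 0.49 on the log2 scale (limma adjusted p = 0.0114). Without HH18 replicates 5 and 6 the rise was 0.53 (limma adjusted p = 0.0103). Neither value separates depth from stage. With 6286 or more reads of miR-140-3p in every library, random thinning and rescaling must return nearly the same fold change. The HH18 libraries left without replicates 5 and 6 were still shallower than every HH22 library.

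**Figure D2:**
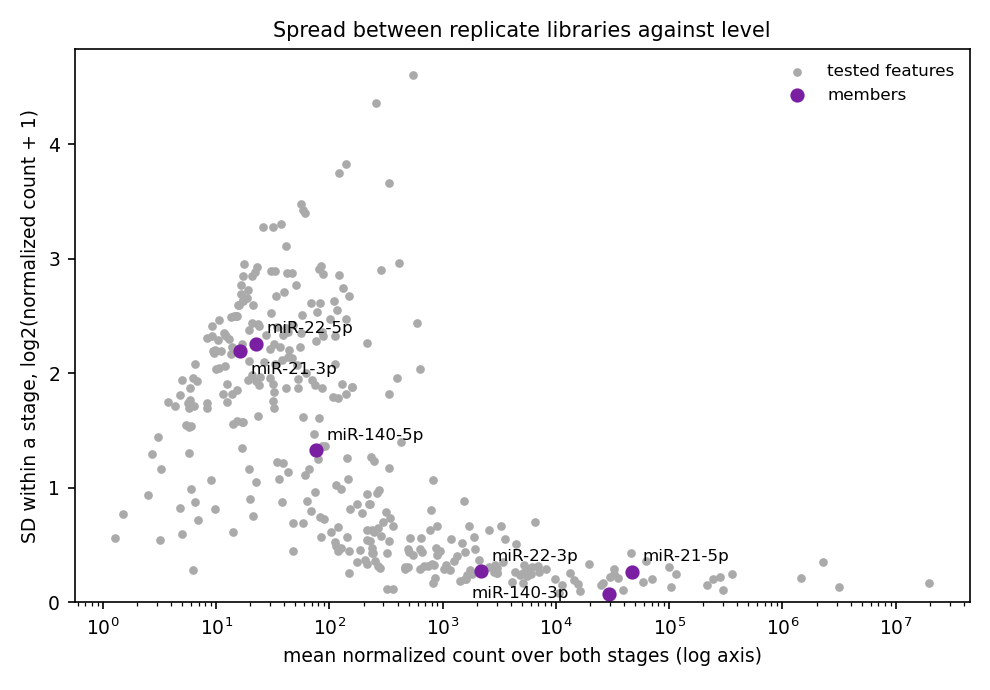
SD between replicate libraries within a stage, on log2(normalized count + 1) (vertical axis), against the mean normalized count (horizontal axis, log scale) for 356 tested features (grey) and the 6 members (purple). miR-140-3p lies lowest at 0.08, and the minor arms lie among the scarce features with a wide spread.

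miR-21-5p, the most abundant member, did not pass the test. Its normalized counts were 34355, 35559, 51112 and 53564 in HH18 replicates 5 to 8, and 44299, 50617, 58456 and 48182 in HH22 replicates 1 to 4. HH18 replicates 5 and 6 were below all other libraries, while HH18 replicates 7 and 8 lay within the HH22 range. The log2 fold change was 0.23 (SE 0.16, 95% interval -0.13 to 0.59, limma adjusted p = 0.422). It turned to -0.062 without HH18 replicates 5 and 6, which were the shallowest and also held the most blood and endothelial miRNAs at HH18 (14371 and 2041 normalized counts against 233 and 364). At HH22, replicate 4 held the most of these (2089), with miR-21-5p at 48182. The part of depth or of blood in the split of the HH18 libraries was not tested.

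miR-22-3p showed no difference past the threshold either. Its normalized counts were 2671, 1857, 2795 and 1819 in HH18 replicates 5 to 8, and 2513, 2013, 1842 and 2049 in HH22 replicates 1 to 4. At HH18 replicates 5 and 7 were high and replicates 6 and 8 low, and the HH22 libraries lay within the HH18 range. The log2 fold change was -0.10 (SE 0.20, 95% interval -0.54 to 0.34, limma adjusted p = 0.768). The higher HH18 libraries, replicates 5 and 7, differed in blood and endothelial miRNAs (14371 and 233 normalized counts) and in depth. The part of either in the spread of miR-22-3p was not tested.

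**Figure D3:**
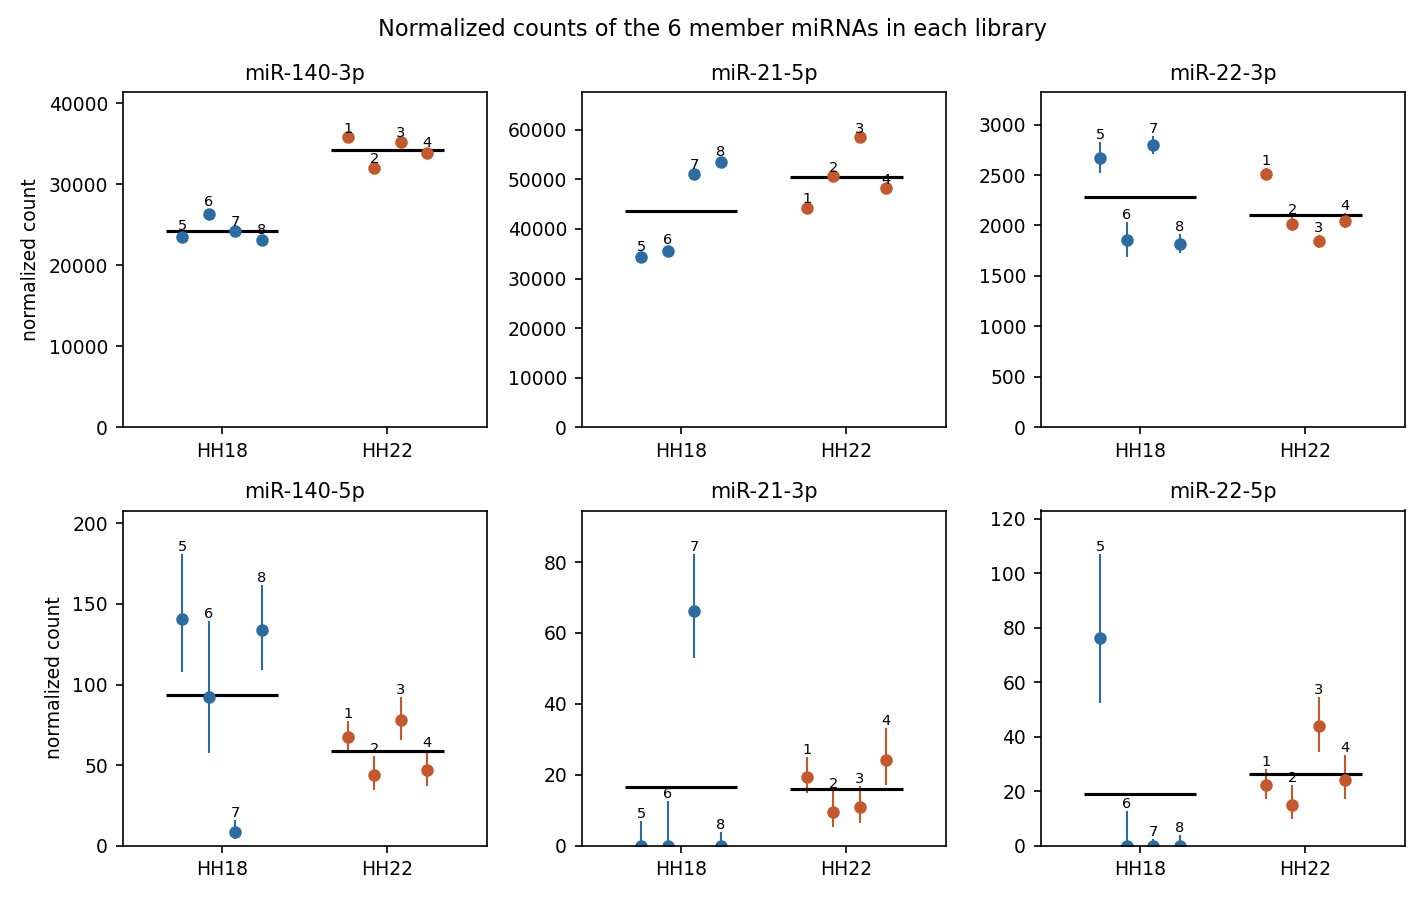
Normalized counts of the 6 members (vertical axes, from 0) in each library of HH18 (blue) and HH22 (orange). Numbers are the replicates, black lines the stage means, and bars the exact 95% Poisson intervals of the reads (for 0 reads, up to 3 reads), which cover counting error only. miR-140-3p separates the stages, from 23081 to 26284 against 31952 to 35761, and the other members overlap.

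The minor arms were scarce and differed strongly among HH18 libraries. miR-140-5p, the arm whose targets in mouse and zebrafish are the better studied, had 61, 22, 11 and 105 reads in HH18 replicates 5 to 8, and between 70 and 201 reads in each HH22 library. That is 140.8, 92.0, 8.79 and 134 normalized counts at HH18, and 67.4, 43.9, 77.9 and 46.97 in HH22 replicates 1 to 4. HH18 replicate 7, the deepest library of its stage, was the lowest of all 8, and the other HH18 libraries were above all HH22 libraries. The log2 fold change was -0.14 (SE 0.96, 95% interval -2.27 to 1.98, limma adjusted p = 0.934), and its sign turned under 5 alternatives. The interval is wide enough to hold changes of several-fold in either direction.

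miR-21-3p and miR-22-5p were read in all HH22 libraries and in 1 HH18 library each, so they entered the test mainly through HH22. miR-21-3p had 83 reads in HH18 replicate 7 and 0 in replicates 5, 6 and 8, against 58, 15, 19 and 37 reads in HH22 replicates 1 to 4. In normalized counts this is 66.3 in HH18 replicate 7 and 9.42 to 24.1 at HH22. A count of 0 allowed up to 6.93, 12.5 and 3.82 in HH18 replicates 5, 6 and 8, so 0 reads in replicate 6 do not exclude the HH22 levels of 9.42 and 10.8. miR-22-5p had 33 reads in HH18 replicate 5 and 0 in replicates 6, 7 and 8, against 66, 24, 77 and 37 at HH22. This is 76.2 normalized counts in HH18 replicate 5 and 15.1 to 43.8 at HH22, where a count of 0 allowed up to 12.5, 2.40 and 3.82 in HH18 replicates 6, 7 and 8. The high HH18 library was thus a different one for each of these arms, and each stood above all HH22 libraries. HH18 replicate 5, the library with miR-22-5p, was also the one with the most blood and endothelial miRNAs, and its part in the result was not tested. Neither arm passed (limma adjusted p = 0.325 for miR-21-3p and 0.234 for miR-22-5p). Without HH18 replicate 7 (for miR-21-3p) or replicate 5 (for miR-22-5p) the HH18 libraries left hold 0 reads of the arm, and since the arm met the minimum level through HH22, a test without that library says nothing further.

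The share of the minor arm in the reads of its own hairpin was then compared, since it does not depend on scaling. For miR-140 the 5p arm made up 0.596% (exact 95% binomial interval 0.456 to 0.765), 0.349% (0.219 to 0.528), 0.0363% (0.0181 to 0.0649) and 0.576% (0.471 to 0.697) in HH18 replicates 5 to 8. At HH22 it made up 0.188% (0.163 to 0.216), 0.137% (0.107 to 0.173), 0.221% (0.185 to 0.261) and 0.138% (0.108 to 0.174) in replicates 1 to 4. In HH18 replicates 5, 6 and 8 the share was higher than in any HH22 library, and in HH18 replicate 7 it was lower. These intervals cover counting error only, with reads taken as independent molecules, and not the spread between pools of chicks. For miR-21 the 3p arm held 0.130% (0.103 to 0.161) in HH18 replicate 7 and 0.0185% to 0.0501% at HH22. In HH18 replicate 8, 0 of 42080 reads of the hairpin were from this arm, which allows a share of up to 0.00713%. For miR-22 the 5p arm held 2.77% (1.92 to 3.87) in HH18 replicate 5 and 0.743% to 2.32% at HH22, and 0 of 3498 reads in HH18 replicate 7, which allows up to 0.0858%.

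In a fit across all 74 hairpins with both arms tested, none of the 3 members' arm ratios passed. The log2 ratio of 3p to 5p differed by 0.64 (SE 0.80, limma adjusted p = 0.74) for miR-140, by 2.24 (SE 1.23, limma adjusted p = 0.442) for miR-21 and by -3.20 (SE 1.35, limma adjusted p = 0.294) for miR-22, HH22 minus HH18. The differences of miR-21 and miR-22 rest on HH18 libraries with 0 reads of the minor arm and therefore on the pseudocount: with 5 in place of 1 they were 0.82 and -1.66, and with 0.5 they were 2.94 and -3.92. For miR-22 the difference was -1.56 after thinning to equal depth. The mean share of the minor arm of miR-21 was 0.0324% ± 0.0648 at HH18 and 0.0328% ± 0.0166 at HH22 (SD, n = 4). Its HH18 mean comes from replicate 7 alone, so the near-equal means do not show an equal share. For miR-140 the mean shares were 0.389% ± 0.261 and 0.171% ± 0.0407, and for miR-22 they were 0.693% ± 1.39 and 1.28% ± 0.719 (SD, n = 4). Over all hairpins 1.35% passed and in 12.2% the stages did not overlap, against 0 of the 3 members in both counts. Without HH18 replicate 7, 6 hairpins passed in place of 1. Among them was miR-140, with a difference of 1.55 (limma adjusted p = 0.0359), a call that appears only when this 1 library is left out. The ratio of miR-21 also passed without HH18 replicate 7, and that of miR-22 without HH18 replicate 5. In both cases the HH18 libraries left held 0 reads of the minor arm, so these calls say nothing further.

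**Figure D4:**
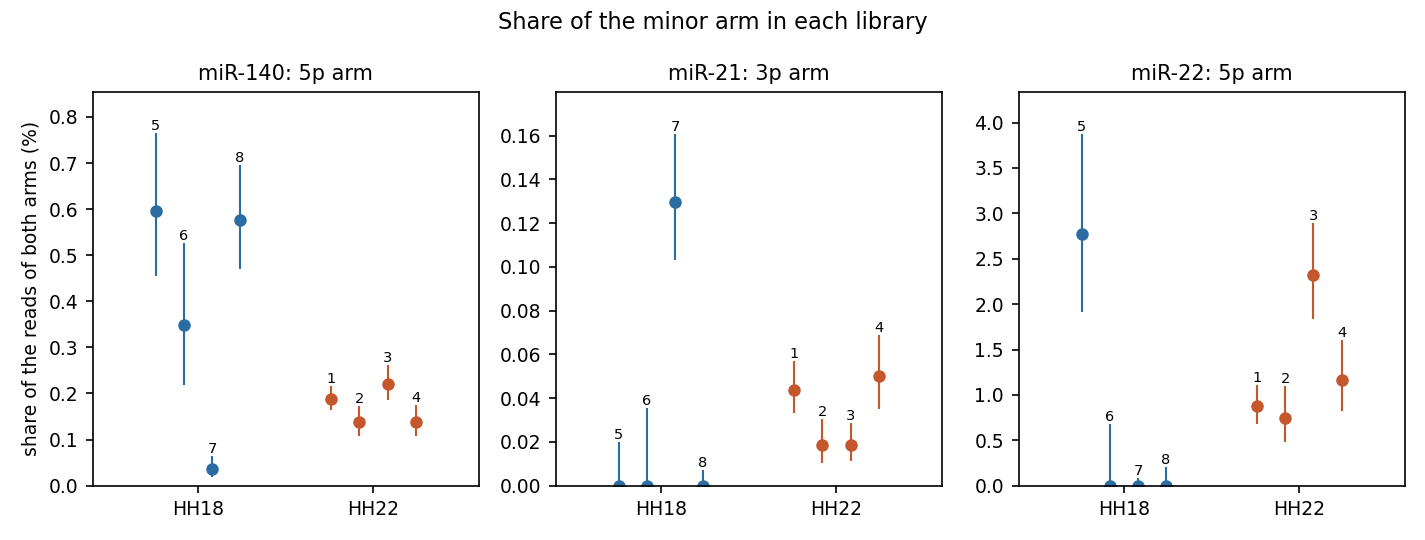
Share of the minor arm in the reads of both arms of its hairpin (vertical axes, percent) in each library, with exact 95% binomial intervals (for 0 reads, the limit of 3 reads), which cover counting error only. Numbers are the replicates. HH18 replicate 7 is lowest for miR-140-5p (0.0363%) and highest for miR-21-3p (0.130%), and HH18 replicate 5 is highest for miR-22-5p (2.77%).

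A list of other miRNAs known from cartilage, mesenchyme and fibroblasts was set beside the members. Of its 13 rows of miR-199, miR-214, miR-455 and miR-29, 3 were at 0 in all libraries and 7 were tested, of which 2 were higher and 0 lower at HH22. These were both arms of miR-199, known from mesenchyme, with log2 fold changes of 1.90 (SE 0.19, limma adjusted p = 0.000183) for miR-199-5p and 1.20 (SE 0.32, limma adjusted p = 0.0304) for miR-199-3p. For miR-199-5p all HH22 libraries lay above all HH18 libraries, as in 11.5% of all tested features, while for miR-199-3p the stages overlapped. miR-455-5p went from 5607 ± 1111 to 4701 ± 664 (SD, n = 4), a log2 difference of -0.24 with an SE of 0.18 that missed the threshold (limma adjusted p = 0.422). Over all tested features 9.83% were higher and 4.78% lower. The median log2 fold change of the 7 was -0.13, beside 0.38 over all tested features. It includes the scarce miR-29a-3p (-1.25, SE 1.58) and miR-29b-3p (-0.74, SE 2.17), whose lowest libraries held 0 reads. This median is therefore no result about the list. Summed over all 13 rows, the list was at 7314 to 12868 normalized counts at HH18 and 11405 to 14738 at HH22. The part of this level in the rise of miR-140-3p was not tested.

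By likeness of profile, the features closest to miR-140-3p were miR-103-3p, miR-30e-3p and miR-148a-3p, with root mean square differences of 0.13, 0.13 and 0.15 on the log2 scale over the 8 libraries, each profile centred on its own mean. The median over the 177 candidates whose mean reached 100 was 0.62. Closest to miR-21-5p were miR-20b-5p (0.12), miR-200a-5p (0.17) and miR-125b-3p (0.20), and closest to miR-22-3p were miR-222a (0.18), miR-23b-3p (0.23) and miR-99a-5p (0.24). The libraries share their depth and scaling across all features, so these differences are a description of the profiles.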

How the data were processed

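Small RNA libraries (miRNeasy RNA, TruSeq small RNA kit, per the labels) were compared between 4 HH18 and 4 HH22 libraries. Per the submitters' processing notes, the tools were kallisto 0.44.0, cutadapt 1.8.1 and bcl2fastq. How the log2 values were made, and from which reference, is not given in the sources used here. From the values themselves, the log2 values deposited by the authors have the form of a variance-stabilizing transformation, with a shared lowest value of 8.52. Its inverse gave whole multiples of 1 step (tolerance 0.001) for 100% of values above 0 in each library, called reads, and the step is 1 over the size factor. As kallisto estimates counts, reads are rounded estimates, and similar miRNAs can share them; no member had the same reads as another row.

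Features that reached a normalized count of 1 in 4 or more libraries (356 of 994) were tested on log2(normalized count + 1) with limma-trend, two-sided, Benjamini-Hochberg threshold 0.05 over all of them; fold changes are on that scale and for scarce miRNAs can depart from the ratio of the means. Arm ratios were fitted alike across hairpins. The procedure was tested on simulated data in which rises and falls were equal in number. That test does not bear on the choice of scaling. P-values describe the spread between pools of 2 chicks. The members, comparison lists, tests and most alternatives were chosen with earlier results of these data known. Every member was named; profile matches were the 3 nearest features. The planned ratio of miR-143 to miR-145 was not analysed here, since no row carries these numbers. No sequence table was used here, so none are printed. Versions were R 4.3.3, limma 3.58.1, Python 3.11.15, numpy 2.4.6, pandas 2.3.3 and matplotlib 3.10.9.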

Additional observations from a re-analysis of the deposited data

Results flagged for a closer look

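In 4 of 18 groups of 4 libraries, 1 library stood far from the other 3. They come from 2 arms, each seen in its level and in its share. In all 4 the other libraries were at 0, so any read in the remaining library would have set it apart, and the usual chance rate of about 1 in 20 groups does not apply. HH18 replicate 7 held 66.3 normalized counts of miR-21-3p, a share of 0.130% of its hairpin's reads, where the other HH18 libraries held 0. HH18 replicate 5 held 76.2 normalized counts of miR-22-5p, a share of 2.77%, where the other HH18 libraries held 0.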

How the results depend on the processing

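Over all features 52 passed, 24 with no filter on low values and 27 to 66 with 1 library left out. The split of higher against lower calls was 35 and 17, but 24 and 47 with library size counted without the 5 most abundant features, and 38 and 10 with upper-quartile scaling, which moved the median log2 fold change by 0.12. Members past the threshold numbered 1, but 0 with library size scaling and with library size counted without the 5 most abundant features, 2 without HH18 replicates 5 and 6, and 1 to 2 with 1 library left out. The second was miR-21-3p or miR-22-5p after its only HH18 library with reads had been left out. Hairpins past the threshold in arm ratio numbered 1, and 0 to 6 with 1 library left out. The log2 fold change of miR-140-3p kept its sign in 20 of 20 alternatives, though 1 of these values was 0.029 (SE 0.11). It kept its call in 18, and lay between 0.47 and 0.53 with 1 library left out. Most alternatives kept the authors' method of scaling, so this tally says little about scaling. The 2 that lost the call were those that scaled by library size. Signs turned for miR-140-5p with voom (0.46), without HH18 replicates 5 and 6 (0.69) and without HH18 replicates 5 (0.23), 6 (0.031) or 8 (0.21), with a range of -1.05 to 0.23 over single libraries left out; for miR-21-5p without HH18 replicates 5 and 6 (-0.062) and with library size counted without the 5 most abundant features (-0.24); for miR-22-3p with upper-quartile scaling (0.036) and without HH18 replicate 7 (0.0059, the upper end of a range from -0.20); and for the arm ratio of miR-140 without HH18 replicates 5 and 6 (-0.15). The cause was not tested in any of these. No paired analysis was possible because the sample numbers 1 to 8 are all different. Relative counting error is largest for the minor arms, where 1 HH18 read is worth up to 4.18 normalized counts. The part of depth in their spread was not tested.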
